A study of Homo sapiens with 8 samples.

Results

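The 52 replication-dependent core histone genes were followed by ribosome profiling, out of 19580 genes with 1 transcript each in the deposited table. They were taken from a list of gene identifiers, by family and name, and comprise 13 H2A, 15 H2B, 10 H3 and 14 H4 genes. All 52 were in the table. Symbols were those given with the list. The transcript length in the table equalled that of the RefSeq gene of the same symbol for 41 of the 52.

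Ribosome profiling sequences the short mRNA pieces that ribosomes protect from RNase, so a footprint value counts ribosomes on a transcript. The cells were HAP1, a near-haploid human line of leukaemic origin, either wild type or knocked out for RNF14, an E3 ubiquitin ligase that acts on stalled ribosomes. All 4 groups, the wild type included, had taken up the nucleoside analog 4SU (5 µM, over 18 h) and were then exposed to UVA (6 kJ/m2), a combination that crosslinks RNA to protein; no group without this treatment was analysed here. Each genotype was harvested after 0 or 30 min of recovery, with 2 biological replicates per group. The sources used here do not say whether the knockout was 1 clone. The table names genes by Ensembl identifier only, and no table of names was at hand, so the loss of RNF14 and the markers of HAP1 cells were not checked.

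Core histones form the protein spool of the nucleosome: H3 and H4 make its central tetramer, and H2A–H2B dimers flank it. Replication-dependent histone genes lie in clusters, have no introns, and are transcribed mainly in S phase. Their mRNAs end in a stem-loop bound by SLBP in place of a poly(A) tail, and they are degraded quickly when DNA synthesis stops. H2A and H2B genes often stand head to head and share a promoter.

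In the GRCh38 annotation, 26 of the genes lay on chromosome 6 between 26020451 and 26285534, 5 between 27132316 and 27147562 and 15 between 27807479 and 27893891. Another 5 lay on chromosome 1 between 149832657 and 149887965. H4C16 lay alone on chromosome 12, from 14770720 to 14771131. The promoters of an H2B, an H3 and an H4 gene with many footprints are shown because the families differ in the short motifs they hold. These are the 250 bases before the RefSeq start (GRCh38.p14), 5′ to 3′ on the strand of the gene. Capitals mark 4 motifs, searched on both strands. ATTTGCAT is the octamer bound by OCT1, and CCAAT is the box bound by the factor NF-Y. The letters TATAAA are a form of the TATA box, which positions the transcription start. The H4 element bound by HiNF-P contains GGTCCG. H2BC8 is at chr6:26216689-26216938, minus strand, H3C2 at chr6:26032100-26032349, minus strand, and H4C8 at chr6:26285535-26285784, minus strand.
H2BC8: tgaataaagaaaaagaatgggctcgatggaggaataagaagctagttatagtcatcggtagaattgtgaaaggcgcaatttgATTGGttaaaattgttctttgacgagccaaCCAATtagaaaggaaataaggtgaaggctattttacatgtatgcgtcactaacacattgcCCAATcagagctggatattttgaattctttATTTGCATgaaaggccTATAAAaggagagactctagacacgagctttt
H3C2: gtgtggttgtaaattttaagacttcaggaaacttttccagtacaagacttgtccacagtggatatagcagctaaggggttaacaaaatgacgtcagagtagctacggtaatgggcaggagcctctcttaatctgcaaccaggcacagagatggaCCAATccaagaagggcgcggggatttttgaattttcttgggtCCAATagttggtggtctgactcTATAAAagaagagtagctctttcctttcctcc
H4C8: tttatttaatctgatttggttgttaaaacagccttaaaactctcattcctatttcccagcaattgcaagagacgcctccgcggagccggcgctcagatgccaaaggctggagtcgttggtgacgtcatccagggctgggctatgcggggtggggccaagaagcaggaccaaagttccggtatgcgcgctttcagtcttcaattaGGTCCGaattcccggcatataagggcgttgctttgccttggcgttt
In H2BC8 the octamer begins 48 bases before the start and TATAAA 32 bases before it. In H3C2, CCAAT begins 96 and 54 bases before the start. In H4C8 the only match is GGTCCG, 46 bases before the start. H2AC8 begins on the other strand, 233 bases from H2BC8, so the same octamer serves as the match for both genes.

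Over the 47 members with a RefSeq promoter entry (H4C3, H2AC12, H3C11, H4C1 and H3C12 had none), the motifs divided by family. The octamer was held by 10 of 12 H2A and 12 of 15 H2B promoters, 1 of 8 H3 and 0 of 12 H4 promoters, against 1.63% of all 35116 promoters. The H3 match came from an entry of H3C4 that has the same start as H2AC7. CCAAT was in all 12 H2A, 15 H2B and 8 H3 promoters and in 3 of 12 H4 promoters, against 32% of all. GGTCCG was in 12 of 12 H4 promoters and in 1 promoter each of H2A, H2B and H3, against 9.43% of all. TATAAA was less tied to a family, with 9 of 12 H2A, 11 of 15 H2B, 6 of 8 H3 and 6 of 12 H4 promoters, against 10.7% of all. In 9 head-to-head H2A–H2B pairs the starts lay 194 to 248 nt apart, within the 250 bases searched. There 1 match can count for both genes, so the H2A and H2B counts are not separate observations. A gene counted if any of its entries held the motif (51 entries for 47 genes), whereas the shares of all promoters are over entries. A match describes the letters in this window and is not evidence of binding.

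The footprint data were unevenly spread over the genes. Values are RPKM, reads scaled to transcript length and to the reads of the library. A group of 32 genes had a mean RPKM between 573 and 12489 and held 99.33% of the 398694 histone reads of the 8 libraries: 10 H2A, 9 H2B, 5 H3 and 8 H4 genes. They are called the well-read genes here, a split at a mean RPKM of 100 that was chosen after the values were seen. The other 20 had a mean RPKM of at most 96.0. Of these, H2BC15 had 2118 reads, spread over a listed transcript of 4137 nt, H2BC6 had 151 and H4C12 had 136, and 14 had between 1 and 42. H4C11, H4C14 and H4C15 had 0 of 5900411 reads, which allows an RPKM of up to 1.28 for H4C14 and H4C15 and 1.31 for H4C11 (3 reads, counting error only). The sources used here do not say how reads that match several near-identical histone genes were assigned, so values of single genes are less certain than family sums, and H4C14 and H4C15 have identical bases before their starts.

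The well-read genes were not evenly placed. The 26-gene stretch of chromosome 6 held 19 well-read and 7 low genes, whereas the 15-gene stretch held 4 well-read and 11 low ones. In the 5-gene stretch between them all genes were well read. Of 9 head-to-head H2A–H2B pairs with starts within 400 nt, 6 had both genes well read and 2 had both low (H2AC13 with H2BC13, and H2AC14 with H2BC14). The last pair, H2AC15 and H2BC15, was mixed, with mean RPKM of 1223 and 96.0 on listed lengths of 496 and 4137 nt. The RefSeq gene of H2BC15 is 542 nt long, and the pair had 3053 and 2118 reads. The place of H2BC15 among the 11 low genes of its stretch, and the mixed label, therefore depend on its listed length. H3C2 (ENSG00000286522) ranked 2 or 3 by mean RPKM among all transcripts in each group, and 27 to 31 of the 100 most read transcripts of a group were core histone genes.

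**Figure D1:**
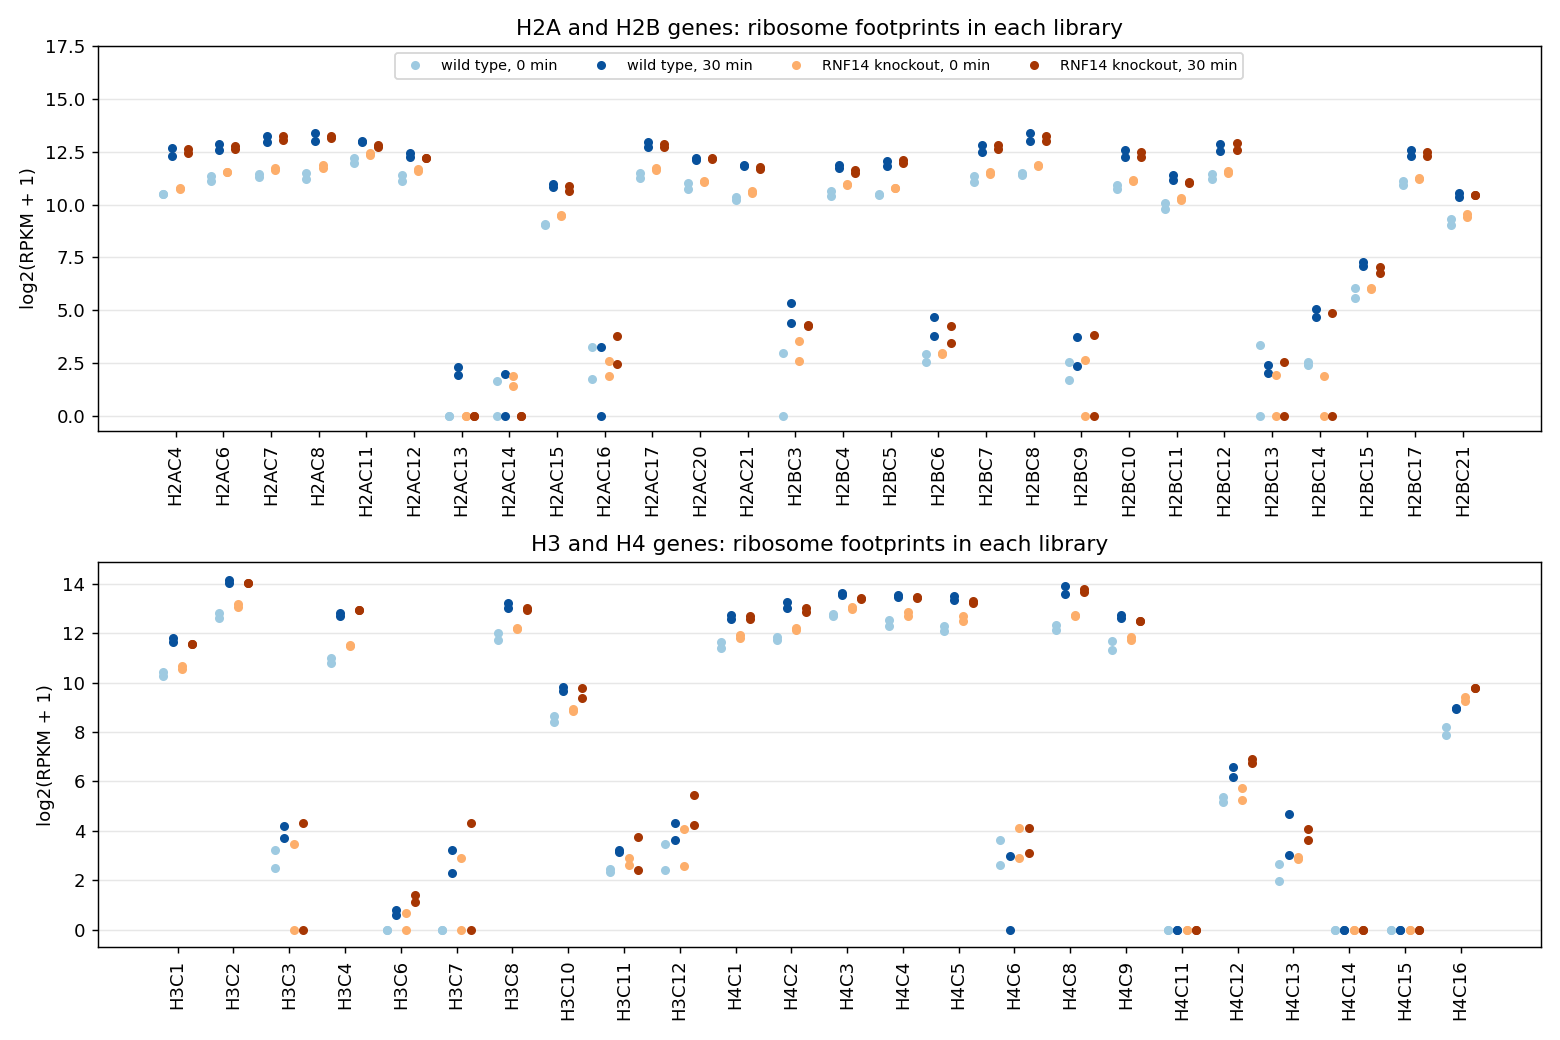
Footprint level of each of the 52 genes as log2(RPKM + 1), with 1 point per library (2 per group); the upper panel holds H2A and H2B genes and the lower panel H3 and H4 genes. The 32 well-read genes lie above the 20 low ones, with the least distance between H4C16 (lowest library 237 RPKM) and H2BC15 (highest library 157 RPKM). Within the well-read genes the 30 min points lie above the 0 min points of the same genotype in every case.

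Libraries held 323946 to 1241975 reads, recovered from the RPKM values, and every 30 min library was shallower than every 0 min library. The shallowest was the first knockout replicate at 30 min. All values are relative to the total of their library, and without RNA-seq of the same lysates, mRNA level and translation cannot be told apart. In bulk lysates, more cells that carry histone mRNA and more footprints per cell cannot be told apart either.

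Recovery in the wild type asked how ribosome occupancy of histone mRNAs changed in the 30 min after crosslinking. Core histone genes held 3.84% and 4.45% of the footprints at 0 min, then 11.5% and 9.91% after 30 min. Their mean share went from 4.14% ± 0.432 to 10.7% ± 1.14 (SD, n = 2), a 2.59-fold change, and the groups did not overlap. All 4 families were higher at 30 min, by unequal amounts: H2A from 1.11% ± 0.118 to 3.09% ± 0.358, H2B from 1.02% ± 0.108 to 2.78% ± 0.384, H3 from 0.745% ± 0.0839 to 1.96% ± 0.154 and H4 from 1.27% ± 0.122 to 2.88% ± 0.241 (SD, n = 2 each). The fold was 2.79 for H2A, 2.73 for H2B, 2.64 for H3 and 2.26 for H4. With 2 libraries against 2, the smallest p a two-sided exact permutation test can give is 0.333, so these shares carry no p-value.

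Gene by gene, 35 of the 47 members that passed the filter (mean RPKM of 1 or more) rose and 0 fell at a limma-trend adjusted p under 0.05, against 1.79% of all 11920 transcripts tested that rose. Members made up 16.4% of all the transcripts that rose. The risers were 10 H2A, 11 H2B, 5 H3 and 9 H4 genes and took in all 32 well-read genes. The members' median log2 change was 1.35, beside -0.26 over all transcripts tested. The 30 min libraries lay above both 0 min libraries in 42 of the 47, against 14.0% of all transcripts.

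The largest change among well-read genes was in H2AC4 (ENSG00000278463), an H2A gene, at 1462 and 1426 RPKM at 0 min and 6450 and 5041 at 30 min. Its log2 change was 1.98 (SE 0.13, limma-trend adjusted p = 6.14e-05). H2AC8 (ENSG00000277075) had 2354 and 2911 RPKM at 0 min and 10814 and 8263 at 30 min, and its neighbour H2BC8 (ENSG00000273802) had 2659 and 2915, then 10660 and 8126. The folds of this head-to-head pair were 3.62 and 3.37, and in both genes the 2 times were far apart. H3C4 (ENSG00000197409), an H3 gene, had 1799 and 2066 RPKM at 0 min and 7223 and 6633 at 30 min, a log2 change of 1.84 (SE 0.11, limma-trend adjusted p = 6.14e-05). H2AC15, H2AC7, H2BC10 and H2AC21 were, beside H2BC3, the other H2A and H2B genes among the 10 largest changes, with folds of 3.59, 3.34, 3.03 and 2.94. H4C8 (ENSG00000158406) was the H4 gene among them, at 4464 and 5188 RPKM at 0 min and 15232 and 12291 at 30 min, a 2.85-fold change. H2BC3 had the largest fitted value of all, a log2 change of 3.38 (SE 0.78, limma-trend adjusted p = 0.0455), but from 36 reads in 8 libraries.

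Highly read genes were found at both ends of the range. H3C2, the most read H3 gene, went from 6251 and 7303 RPKM to 18396 and 16602, a 2.58-fold change, and H2BC12 (ENSG00000197903) from 2354 and 2807 to 7509 and 5876, a 2.59-fold change. H3C8 (ENSG00000273983) went from 3427 and 4143 RPKM to 9566 and 8253, a 2.35-fold change. Those values lie near the median fold of 2.58 for the 32 well-read genes. The smallest folds were in H4C3 (ENSG00000197061), with 6654 and 6978 RPKM at 0 min and 12541 and 11839 at 30 min, and in H2AC11 (ENSG00000196787), with 3986 and 4711, then 8226 and 7836. These were 1.79-fold and 1.85-fold, and H2AC4, of the same family as H2AC11, changed 3.98-fold. Among the well-read genes, the log2 fold in the wild type had r = -0.12 with the log2 mean level at 0 min (32 genes, a description across genes that share libraries). The well-read genes of the 5-gene stretch had a median fold of 2.25, and those of the 26-gene stretch one of 2.72, from 1.79 to 3.98.

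The wild-type calls were lost with some settings of the fit: 2 members were called with no filter on low values and 0 with no trend in the prior. Calls over all transcripts were few there too, with 69 of 19580 higher with no filter and 1 of 11920 with no trend. At an unadjusted p under 0.05 there were 31 of 52 members with no filter and 37 of 47 with no trend. Over all transcripts there were 2672 of 19580 and 2284 of 11920, in either direction. Quantile normalization, which gives all libraries the same distribution, called 20 members higher and 1 lower (H2AC11), and put 8 of the 32 well-read genes at or below no change. Over all transcripts it called 284 higher and 135 lower.

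**Figure D2:**
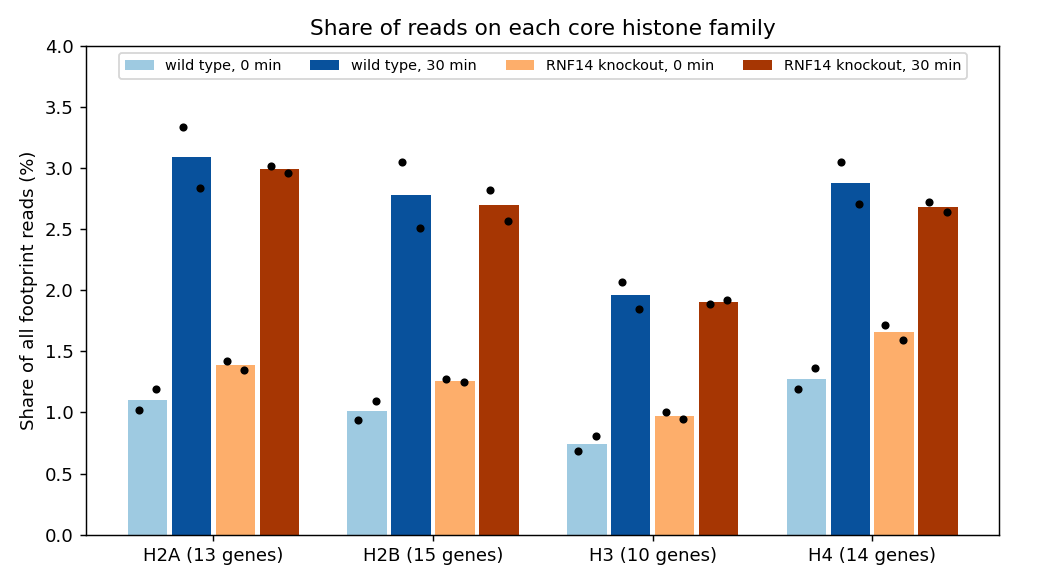
Share of all reads (percent) taken by the H2A, H2B, H3 and H4 genes in each group; bars are means and points the 2 libraries of a group. In each family both 30 min bars stand above both 0 min bars, with knockout above wild type at 0 min and close to it at 30 min.

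Recovery in the RNF14 knockout showed the same direction with smaller values. The histone share went from 5.41% and 5.14% at 0 min to 10.5% and 10.1% at 30 min, from a mean of 5.27% ± 0.197 to 10.3% ± 0.256 (SD, n = 2), a 1.95-fold change. H2A and H2B changed 2.16-fold and 2.14-fold, H3 1.96-fold and H4 1.62-fold, so H4 had the lowest fold in both genotypes. By limma-trend at an adjusted p under 0.05, 28 of 47 members rose and 0 fell, against 0.646% of all transcripts tested that rose. The 28 were 36.4% of all risers and comprised 8 H2A, 9 H2B, 4 H3 and 7 H4 genes, with 27 of the 32 well-read genes among them. The members' median log2 change was 0.91, beside -0.12 over all transcripts, and 38 of 47 had both 30 min libraries above both 0 min libraries, against 18.6% of all. The 38 took in all 32 well-read genes.

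H2AC4 again led the well-read genes, with 1768 and 1708 RPKM at 0 min and 6285 and 5508 at 30 min, a log2 change of 1.76 (SE 0.13, limma-trend adjusted p = 0.00059). H2AC7, H3C4, H2AC8 and H2AC15 followed with folds of 2.74, 2.72, 2.67 and 2.43, and then the H2B genes H2BC8, H2BC10, H2BC5 and H2BC7 with 2.41, 2.39, 2.35 and 2.35. H4C12, an H4 gene with few reads, was also among the 10 largest, at 52 and 36.5 RPKM at 0 min and 120 and 107 at 30 min. H4C8 went from 6782 and 6719 RPKM to 14069 and 12959, a 2.0-fold change, and H3C2 from 9233 and 8595 to 16927 and 16602, a 1.88-fold change. Both changes passed the test. The 5 well-read genes that did not pass were H4C3, H2AC11, H2AC12, H3C10 and H4C16, with limma-trend adjusted p of 0.0672, 0.121, 0.0506, 0.0615 and 0.143. H2AC11 had 5595 and 5179 RPKM at 0 min and 6794 and 7089 at 30 min, a 1.29-fold difference whose libraries still did not overlap.

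The number of knockout calls depended on single libraries and on settings of the fit. Fewer members were called without the first or without the second knockout replicate at 0 min, each leaving 1 library in that group. The members' median log2 change was then 0.96 and 0.91. With no filter 0 members were called, against 18 of 19580 transcripts called higher, and with no trend in the prior 0, against 0 of 11920. Median centring called 16 members higher, against 44 of 11920 transcripts. Quantile normalization called 16 higher and 1 lower (H2AC11) and put 10 of the 32 well-read genes at or below no change. Over all transcripts it called 86 higher and 61 lower. At an unadjusted p under 0.05 there were 24 of 52 members with no filter and 33 of 47 with no trend. Over all transcripts there were 2336 of 19580 and 1914 of 11920, in either direction.

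The genes kept nearly the same order in both genotypes. Over the 32 well-read genes, r between the log2 folds of wild type and knockout was 0.94, given as a description since the genes share libraries. The fold was larger in the wild type for all 32, with ranges of 1.79 to 3.98 (median 2.58) and 1.29 to 3.39 (median 1.98). Averaged over both genotypes, 36 members rose and 0 fell by limma-trend at an adjusted p under 0.05 (10 H2A, 12 H2B, 5 H3 and 9 H4), against 2.45% of all transcripts that rose. With no filter 12 were called and with no trend 24, all higher, and quantile normalization called 23 higher and 5 lower (H2AC11, H4C3, H2AC12, H4C9 and H4C1). Over all transcripts, 145 of 19580 were higher with no filter and 65 of 11920 with no trend. Quantile normalization called 422 of 11920 transcripts higher and 247 lower.

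**Figure D3:**
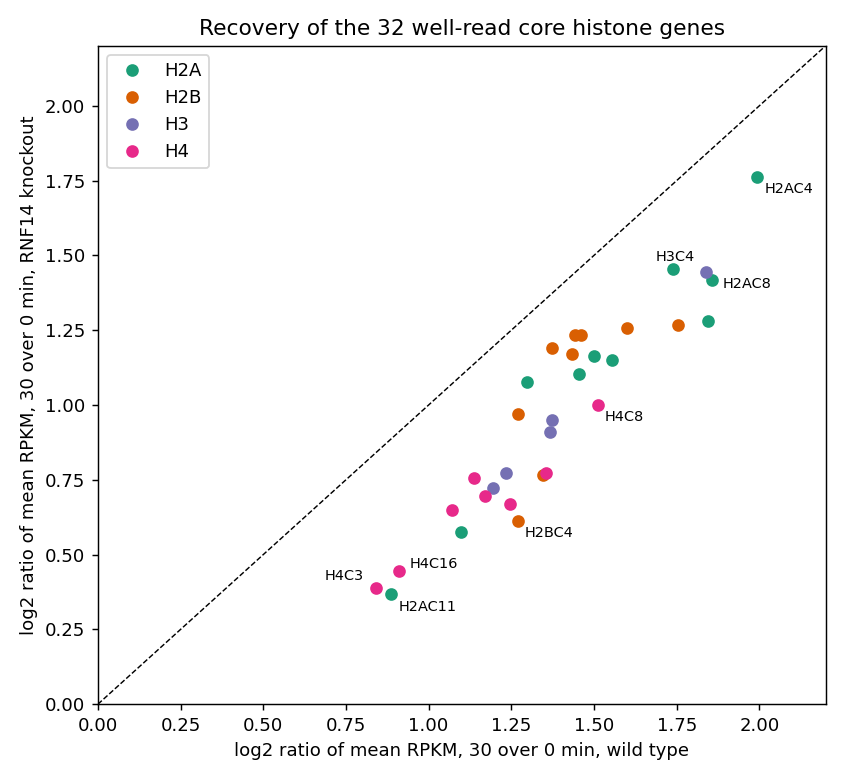
Recovery of each of the 32 well-read genes as log2 of the ratio of mean RPKM at 30 over 0 min, wild type on the x axis and RNF14 knockout on the y axis, coloured by family, with the dashed line at equal values. All 32 points lie above 0 on both axes and below the line, from H4C3 and H2AC11 at the low end to H2AC4 at the high end; quantile normalization moves 8 wild-type and 10 knockout values to 0 or below.

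Families were also set against H2A within each library, which removes the library total. The read ratio of H4 to H2A was 1.15 ± 0.0126 at 0 min and 0.933 ± 0.0302 at 30 min in the wild type, and 1.19 ± 0.0165 and 0.898 ± 0.00635 in the knockout (SD, n = 2). Both 30 min groups lay below both 0 min groups in this ratio. H3 to H2A went from 0.672 ± 0.00393 to 0.637 ± 0.0239 and from 0.704 ± 0.00155 to 0.639 ± 0.016. The ratio of H2B to H2A, the partners of a dimer, differed by less: 0.919 ± 0.000573 and 0.899 ± 0.02 in the wild type, 0.909 ± 0.0286 and 0.903 ± 0.0464 in the knockout.

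Histone transcripts are short, so other short transcripts were set beside them. Transcripts of up to 600 nt that are no core histone genes held a share of 3.68% ± 0.391 in the wild type at 0 min and of 3.62% ± 0.0891 (SD, n = 2) after 30 min. In the knockout their share was lower at 30 min, 3.17% ± 0.283 against 4.07% ± 0.107 (SD, n = 2), with no overlap. The 44 histone genes of that length had 3.64% at 0 min and 9.45% at 30 min in the wild type; in the knockout they had 4.64% and 9.08%. The median log2 change of the 293 other short transcripts tested was -0.13 in the wild type and -0.43 in the knockout. With the histone reads left out of the library totals, the median over all transcripts was -0.17 and -0.05, and that of the members 1.45 and 0.99.

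The knockout was compared with the wild type at 0 min, when both had just been irradiated. The histone share was 1.27-fold higher in the knockout, at 5.27% ± 0.197 against 4.14% ± 0.432 (SD, n = 2), and the libraries did not overlap. The family ratios were 1.25 for H2A, 1.24 for H2B, 1.31 for H3 and 1.30 for H4. Single genes were mostly below what the test could call: 1 member, H4C16, was higher at an adjusted p under 0.05 by limma-trend, against 0.134% of all transcripts that were higher. At an unadjusted p under 0.05 there were 25 members, all higher in the knockout, against 13.6% of all transcripts in either direction. All 32 well-read genes, and 35 of the 47 tested, had both knockout libraries above both wild-type libraries, against 21.5% of all.

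H4C16 (ENSG00000197837), the H4 gene outside the histone clusters, had 237 and 290 RPKM in the wild type and 616 and 683 in the knockout at 0 min. At 30 min it had 494 and 498 in the wild type and 877 and 888 in the knockout, so the genotypes did not overlap at either time. Its log2 difference at 0 min was 1.30 (SE 0.14, limma-trend adjusted p = 0.0057), a 2.46-fold ratio, where the median of the well-read genes was 1.25. At 30 min its ratio was 1.78 and the call was not made in the fit used here (log2 difference 0.83, limma-trend adjusted p = 0.075). H3C4 came next by p, with 1799 and 2066 RPKM in the wild type and 2960 and 2849 in the knockout at 0 min (log2 difference 0.59, SE 0.11, limma-trend adjusted p = 0.0907). It was called with TPM scaling, quantile normalization and voom. Voom on the recovered reads called 8 members, all higher, against 3.8% of all transcripts that were higher. H4C8 differed by 0.49 and H3C2 by 0.40, with adjusted p of 0.17 and 0.178.

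The H4C16 call at 0 min held in 14 of 19 settings, with adjusted p from 1.71e-05 to 0.184, and its difference ranged from 1.14 to 1.45. It was lost without the first wild-type, the first knockout or the second knockout replicate at 0 min (0 members called each time), and quantile normalization put 12 of the 32 well-read genes at or below no difference.

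At 30 min the genotypes were close. The share was 10.3% ± 0.256 in the knockout and 10.7% ± 1.14 in the wild type (SD, n = 2), a ratio of 0.959. By limma-trend, 2 of 47 members had an unadjusted p under 0.05, against 1295 of 11920 transcripts in either direction. At an adjusted p under 0.05, 0 members were called in either direction, against 0.126% of all transcripts. Voom also called 0, and TPM scaling and quantile normalization each called H4C16 higher in the knockout (adjusted p = 0.0277 and 0.0104). Both knockout libraries lay below both wild-type libraries in 12 of the 47 tested members, against 18.3% of all. Those included 10 well-read genes, among them H2AC11, H4C3 and H2BC4 (ENSG00000180596), the last at 3759 and 3417 RPKM in the wild type and 2914 and 3129 in the knockout. These 10 genes had both knockout libraries above at 0 min and below at 30 min, against 4.8% of all transcripts. At 30 min H3C4, H4C16, H4C12, H4C6 and H3C6 had both knockout libraries above. H4C6 and H3C6 had only 22 and 7 reads in the 8 libraries, and H3C6 did not pass the filter. The share of all transcripts with this order at 30 min was not counted. Leaving out the second knockout replicate at 30 min called 1 member lower, H2BC14, a gene with 28 reads.

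**Figure D4:**
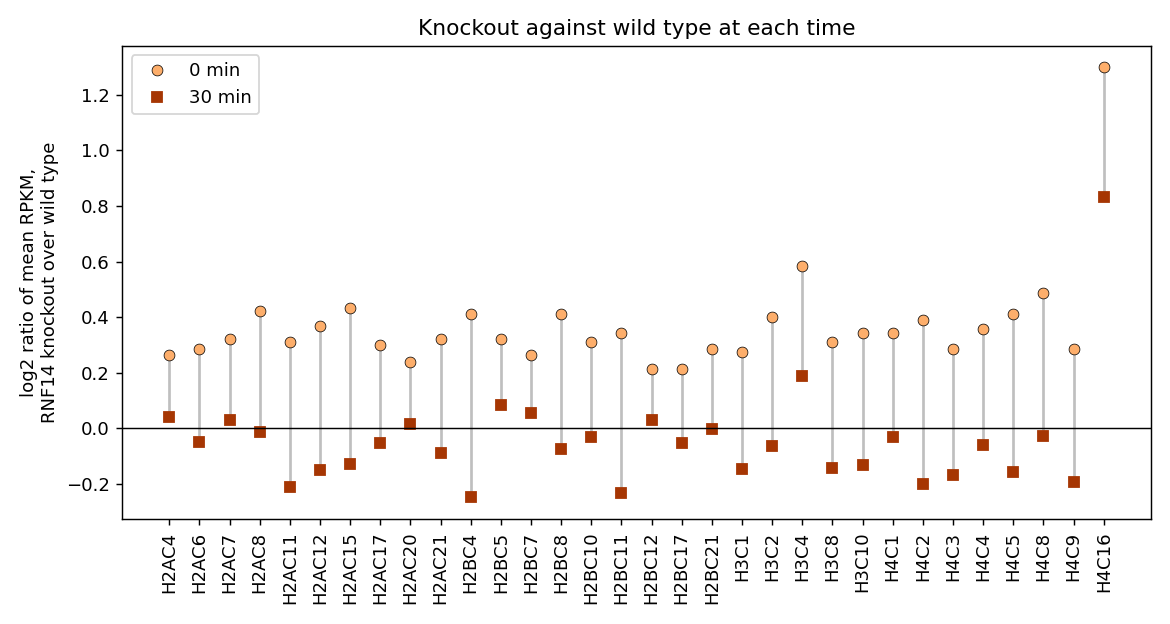
Log2 ratio of mean RPKM, RNF14 knockout over wild type, for each of the 32 well-read genes; circles are 0 min, squares 30 min, and a grey line joins the points of a gene. All circles lie above 0 (ratios of 1.16 to 2.46), and the squares lie on both sides of 0 (ratios of 0.842 to 1.78); quantile normalization puts 12 of the 32 at or below no difference at 0 min.

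Whether recovery differed between the genotypes was tested directly as the interaction. The difference was negative, a smaller change in the knockout, for 43 of 47 members, with a median of -0.45 beside 0.09 over all transcripts. By limma-trend, 0 members passed at an adjusted p under 0.05, against 0.00839% of all transcripts, and the smallest adjusted p was 0.247. At an unadjusted p under 0.05 there were 19 members, all negative, against 13.3% of all transcripts in either direction. H2BC4 had the lowest p: its log2 change was 1.27 in the wild type and 0.61 in the knockout, a difference of -0.66 (SE 0.17). For H2AC4 the difference was -0.22 (SE 0.19) and for H2BC12 -0.19 (SE 0.22), both close to their error. The interaction uses the same 0 min libraries as the genotype comparison at 0 min, so the 2 are not separate observations. Every alternative that was run called 0 members, and with quantile normalization 9 of the 32 well-read genes were above 0.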

How the data were processed

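Ribosome footprints were sequenced from 8 HAP1 libraries. Among the tools in the submitters' processing notes are STAR 2.7.10a and cutadapt, with hg38 as the build. The sources used here do not state the counted region, the choice of transcript or the treatment of reads with several matches. Footprint levels come from what the authors deposited, 1 table of RPKM values with transcript lengths. The knockout 30 min replicate 1 column carries an unexplained suffix and was matched by genotype, time and replicate. RPKM times length gave whole multiples of 1 step for 100% of values (tolerance 0.05), so reads were recovered, 323946 to 1241975 per library; intervals and limits cover counting error only.

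Transcripts were tested by limma-trend in R 4.3.3 (limma 3.58.1) on log2(RPKM + 1), a pseudocount of 1 that understates low genes, over the 11920 transcripts whose mean RPKM reached 1. A single model of the 4 groups, with 4 residual degrees of freedom, was fitted to the 8 libraries, two-sided, with Benjamini-Hochberg adjustment over all transcripts and a threshold of 0.05. Of the 52 genes, 47 passed the filter. The p-values rest on the spread between the 2 biological replicates of a group, pooled over the 4 groups. This spread was also drawn toward a trend with level fitted over all transcripts tested, so it is not that of a single gene alone. The fit was run on simulated counts with the same spread for all transcripts. That run checked the direction of called changes and does not give the rate of false calls in these libraries.

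Named genes were the 10 largest called changes per comparison and the 2 highest by mean RPKM in each family; other genes were chosen after their values were seen. The members and lists were chosen with earlier results of these data known. Replicates of the same number showed no shared deviations from their group means (correlations from -0.08 to 0.07). At this depth counting error could hide a pairing, so the check cannot exclude it. The gene table held 0 Ensembl IDs, so lists of other pathway genes and of cell markers were not run. Promoters are from RefSeq (GRCh38.p14) and 47 of the 52 genes matched by symbol. Alternatives were 3 ways of scaling (TPM, quantile normalization and median centring), pseudocounts of 0.1 and 5, a filter at 5 or none, a prior without trend, the replicate number as a block, voom on recovered reads, a fit to the compared groups alone, and each library left out. Python 3.11.15, pandas 2.3.3, numpy 2.4.6 and matplotlib 3.10.9 were used.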

Additional observations from a re-analysis of the deposited data

Results flagged for a closer look

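In 10 well-read genes both knockout libraries lay above both wild-type libraries at 0 min and below both at 30 min, a pattern shown by 4.8% of all transcripts tested. The difference between the genotypes at 30 min minus that at 0 min (log2) was -0.52 for H2AC11, -0.52 for H2AC12, -0.41 for H2AC21, -0.66 for H2BC4 and -0.57 for H2BC11. It was -0.42 for H3C1, -0.46 for H3C8, -0.45 for H4C3, -0.57 for H4C5 and -0.49 for H4C9. The limma-trend interaction gave these 10 genes adjusted p-values from 0.247 (H2BC4) to 0.339 (H3C1), so none passed. H2AC11 and H2BC11 are a head-to-head pair in the 5-gene stretch of chromosome 6, which also holds H2AC12 and H4C9.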

How the results depend on the processing

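With 2 libraries a group, genes with few reads, such as H2BC3 with 36, are at the limit of the depth, and which copy a read came from is uncertain. For recovery in the wild type, 35 members were called, 34 to 38 with other pseudocounts, a stricter filter, median centring, TPM scaling, voom or only the groups compared, 2 with no filter, 21 with quantile normalization, 0 with no trend, and 31 to 37 with a library left out. For the knockout, 28 were called, 0 with no filter, 16 with median centring, 17 with quantile normalization, 0 with no trend, and 11 to 30 with a library left out. For the average, 36 became 12 with no filter, 24 with no trend, 23 higher and 5 lower with quantile normalization, and 34 to 37 with a library left out. For genotype at 0 min, 1 became 0 with no filter and with no trend, 2 with TPM scaling and with quantile normalization, 8 with voom (which called 453 of 11920 transcripts higher, against 16), and 0 to 1 with a library left out. For genotype at 30 min, 0 became 1 with TPM scaling and with quantile normalization (H4C16), and 0 to 1 with a library left out. The interaction had 0 throughout. Calls over all transcripts also changed with the setting. With no trend, 1, 0 and 65 of 11920 were higher for recovery in the wild type, the knockout and the average, against 213, 77 and 292. With no filter, 69, 18 and 145 of 19580 were higher. The replicate block gave 35, 28, 36, 1, 0 and 0 members, the same counts as without it. The log2 ratio of the histone share, 30 over 0 min, was 1.37 in the wild type and 1.06 with TPM scaling, and 0.96 and 0.83 in the knockout. Quantile normalization reversed H2AC11 (-0.36), H3C8 (-0.08) and H4C3 (-0.28) in the wild type. In the knockout it reversed H2AC11 (-0.59), H3C8 (-0.18) and H4C3 (-0.27) and put H3C2 at no change (0.00). In the average it reversed H2AC11 (-0.47), H3C8 (-0.13) and H4C3 (-0.27), and in the interaction H4C3 (0.01). It forces the same distribution on each library, and 28 to 32 of the 100 transcripts of highest mean RPKM in a group were members. The cause of these reversals was not tested. A fit of only the groups compared was not run for the average and the interaction, which use all groups.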
